A study of Arabidopsis thaliana with 18 samples.

Results

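Abscisic acid is made and destroyed by small groups of enzymes, and 10 of their genes are described here across leaves of the model plant Arabidopsis thaliana. The genes were chosen by locus identifier, not by a measured value, though with earlier results of these data known. They are 6 genes of synthesis (ABA1, ABA2, ABA3, AAO3, NCED3 and NCED5) and 4 genes of the abscisic acid hydroxylases (CYP707A1, CYP707A2, CYP707A3 and CYP707A4). All 10 were among the 27628 genes listed. NCED5 had 0 to 6 counts per library and was not tested, which left 9 members among 19493 tested genes, 5 of synthesis and 4 hydroxylases.

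Abscisic acid is a hormone of drought, seed dormancy and leaf ageing. It is cut from carotenoids in the plastid and finished in the cytosol. ABA1 is the zeaxanthin epoxidase that supplies violaxanthin, and NCED3 and NCED5 are dioxygenases that cleave the carotenoid, a step often rate-limiting. ABA2 turns the product xanthoxin into abscisic aldehyde, AAO3 oxidises the aldehyde to the hormone, and ABA3 sulfurates the molybdenum cofactor that AAO3 needs. The CYP707A enzymes are cytochrome P450 hydroxylases that start the main route of breakdown. Hormone content was not measured here, so all values below are of transcripts.

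RNA sequencing covered leaves of the lines ml5 and ml2, which the labels call knockdowns, and of the wild type (WT), each sampled on day 7 and on day 0 of darkness. These were 6 groups of 3 libraries: ml5 at day 7 and day 0, ml2 at day 7 and day 0, and WT at day 7 and day 0. The sources used here do not say how the lines were made, whether a line is 1 clone, how old the plants were or at what hour they were harvested. Doxycycline appears in the text on extraction and in no label of a sample. Separate plants are not stated for the replicates: the p-values therefore cover the spread between these libraries, which may be technical. The column names of the deposited table were tied to line and day by inference from the labels.

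Of the hydroxylase genes, CYP707A1 and CYP707A3 shared the longest run of bases of any pair of the 10 members in the 250 bases upstream of the annotated start, and they moved in opposite directions with darkness in ml5. Those windows are shown for this reason, with that of CYP707A4, which moved like CYP707A1 in all genotypes. The sequences are from the RefSeq genome TAIR10.1, 5′ to 3′ on the strand of the gene. Capitals mark ACGTG on either strand, the core of the element bound by abscisic acid response factors, and include CACGTG, the G-box.
CYP707A1, chr4:10521009-10521258, plus strand: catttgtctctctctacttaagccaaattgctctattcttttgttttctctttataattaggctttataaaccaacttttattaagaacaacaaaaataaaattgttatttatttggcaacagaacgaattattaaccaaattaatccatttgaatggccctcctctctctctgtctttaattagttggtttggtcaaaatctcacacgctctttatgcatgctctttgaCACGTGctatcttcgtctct
CYP707A3, chr5:18371022-18371271, minus strand: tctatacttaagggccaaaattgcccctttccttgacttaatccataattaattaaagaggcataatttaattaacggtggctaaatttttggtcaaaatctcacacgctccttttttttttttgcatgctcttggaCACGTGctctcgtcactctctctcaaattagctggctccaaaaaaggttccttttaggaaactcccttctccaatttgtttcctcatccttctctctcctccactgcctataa
CYP707A4, chr3:6676522-6676771, minus strand: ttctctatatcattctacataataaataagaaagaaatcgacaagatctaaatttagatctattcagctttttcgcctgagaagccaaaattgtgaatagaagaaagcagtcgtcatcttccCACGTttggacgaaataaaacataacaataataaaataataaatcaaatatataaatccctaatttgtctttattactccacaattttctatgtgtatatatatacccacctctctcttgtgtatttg
The windows of CYP707A1 and CYP707A3 shared 3 runs in the same order: tttggtcaaaatctcacacgctc (23 bases), tgcatgctctt (11 bases) and gaCACGTGct (10 bases). The first run began at position -61 of CYP707A1 and -162 of CYP707A3, counted back from the start. CACGTG was in the windows of 3 of the 10 members (ABA3, CYP707A1 and CYP707A3) and in 6.49% of 27443 windows of protein-coding genes. ACGTG, searched on both strands and contained in CACGTG, was in 5 members, those 3 with ABA1 and CYP707A4, and in 22.9% of all windows. TTGAC, the core of the W-box, was in 7 members and in 44.9% of all windows, and AAATATCT, the evening element, in none of the members and in 4.79% of all windows. These matches describe letters and were not tested as sites.

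Totals ran from 14914598 to 20417396 counts per library. Levels are CPM, counts scaled to a common library size by TMM, with n = 3 libraries per group. ML5 averaged 0.690 ± 0.170 CPM in ml5 at day 7, against 328 ± 14.5 CPM in WT at day 7, and ML2 averaged 27.8 ± 1.69 CPM in ml2 at day 7, against 253 ± 5.0 CPM in WT at day 7 (SD). The library ml2 day 0 replicate 1 stood apart, with a chi-square of 12.7 and 8.61 per degree of freedom, where 1 would be counting noise, against the other libraries of its group, against 1.75 to 5.69 in all other pairs. Leaf mesophyll markers (3 genes) fell with darkness, with sums of 470 to 486 CPM at day 7 and 27300 to 28600 CPM at day 0 in ml5, 192 to 201 and 20100 to 21600 CPM in ml2, and 165 to 182 and 29500 to 30100 CPM in WT. Sums of the 5 phloem markers were 384 to 444 CPM at day 7 and 578 to 708 CPM at day 0, of the 4 guard cell markers 56.8 to 85.3 and 81.0 to 102 CPM, of the 4 epidermis markers 70 to 83.6 and 193 to 277 CPM, and of the 6 xylem markers 2.15 to 3.43 and 15.5 to 20.4 CPM over the 3 genotypes. The 3 root and 3 seed markers summed to at most 0.265 and 0.0461 CPM, and the 3 flower markers to 1.46 to 4.28 CPM. Not every marker moved with its sum. In WT darkness raised 2 of the 5 phloem markers and lowered 3. The counts were 2 and 2 in ml2, and 1 and 3 in ml5. In WT, APL averaged 76.5 CPM at day 7 and 36.5 CPM at day 0, and SUC2 53.9 and 295 CPM. Of the 4 guard cell markers 1 rose and 2 fell in WT and in ml2, and 3 fell in ml5. These calls used the test given below. By it, 81.9% of all tested genes passed with darkness in WT, 79.8% in ml2 and 79.8% in ml5. The counts therefore say nothing particular to these markers. KAT1 averaged 58.7 CPM in WT at day 7 and 36.5 CPM in WT at day 0. The part of these marker shifts in the results below was not tested. In bulk leaves, fewer cells of a type and less RNA per cell cannot be told apart.

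The epoxidase gene ABA1 (AT5G67030, chromosome 5, 26753469 to 26757402, minus strand, 16 exons) held the largest share of the synthesis transcripts per kilobase, and darkness lowered it in all 3 genotypes. Its level was 266, 262 and 261 CPM in ml5 at day 7, against 640.0, 618 and 636 CPM in ml5 at day 0. In ml2 it was 176, 176 and 176 CPM at day 7, against 599, 558 and 586 CPM at day 0, and in WT 262, 263 and 262 CPM at day 7, against 975, 942 and 954 CPM at day 0. No day 7 library reached the lowest day 0 library of its genotype. The log2 fold change of day 7 over day 0 was -1.26 ± 0.038 in ml5 (SE, adjusted p = 2.34e-23), -1.72 ± 0.039 in ml2 (adjusted p = 9.04e-27) and -1.87 ± 0.039 in WT (adjusted p = 8.04e-28). These and the following p-values are two-sided, from edgeR's quasi-likelihood test with Benjamini-Hochberg adjustment over all 19493 tested genes, and a result passed when the adjusted p was under 0.05. At day 0 both lines lay below WT, and at day 7 only ml2 was lower by the test, while the ml5 and WT libraries overlapped.

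The cleavage gene NCED3 (AT3G14440, chromosome 3, 4831286 to 4834015, minus strand, 1 exon), known for its induction by drought, fell with darkness in all 3 genotypes. It stood at 7.50, 6.67 and 8.13 CPM in ml5 at day 7, against 26.2, 25.7 and 24.9 CPM in ml5 at day 0. In ml2 it stood at 8.03, 9.36 and 7.19 CPM at day 7, against 34.3, 27.1 and 28.7 CPM at day 0, and in WT at 7.98, 7.76 and 7.35 CPM at day 7, against 22.8, 20.4 and 19.0 CPM at day 0. At day 7 the 3 genotypes overlapped, while at day 0 all libraries of both lines lay above all WT libraries. The log2 fold change with darkness was -1.78 ± 0.11 in ml5 (adjusted p = 1.13e-15), -1.87 ± 0.10 in ml2 (adjusted p = 1.33e-16) and -1.43 ± 0.11 in WT (adjusted p = 4.46e-13). NCED5 (AT1G30100, chromosome 1, 10571310 to 10573365, plus strand, 1 exon), a relative known from seeds, had 0 counts in all libraries of ml5 at day 7 and of WT at day 0, and at most 0.328 CPM elsewhere.

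The later steps split. AAO3, the aldehyde oxidase gene (AT2G27150, chromosome 2, 11601727 to 11608450, plus strand, 11 exons), rose strongly with darkness, and ABA3, the cofactor gene (AT1G16540, chromosome 1, 5659370 to 5665488, plus strand, 21 exons), rose less, while ABA2 (AT1G52340, chromosome 1, 19489794 to 19491650, minus strand, 2 exons) fell. AAO3 was at 196, 193 and 198 CPM in ml5 at day 7, against 51.6, 52.5 and 53.7 CPM in ml5 at day 0. It was at 227, 243 and 234 CPM in ml2 at day 7, against 58.8, 45.3 and 54.7 CPM in ml2 at day 0, and at 255, 231 and 236 CPM in WT at day 7, against 41.6, 38.0 and 43.1 CPM in WT at day 0. The groups of the 2 days did not overlap in any genotype. The log2 fold change of AAO3 was 1.90 ± 0.066 in ml5 (adjusted p = 7.57e-22), 2.15 ± 0.065 in ml2 (adjusted p = 1.72e-23) and 2.55 ± 0.068 in WT (adjusted p = 4.6e-25). ABA3 averaged 24.1 ± 1.11 CPM in ml5 at day 7 and 13.9 ± 0.897 CPM in ml5 at day 0 (SD, n = 3 each), with 32.2 ± 1.52 and 14.3 ± 0.412 CPM in ml2 and 32.1 ± 2.3 and 12.8 ± 0.410 CPM in WT. Its log2 fold change was 0.80 ± 0.082 in ml5, 1.17 ± 0.077 in ml2 and 1.32 ± 0.081 in WT, with adjusted p between 1.4e-15 and 3.13e-10. ABA2 averaged 10.1 ± 1.04 CPM in ml5 at day 7 and 14.7 ± 0.598 CPM in ml5 at day 0, with 10.8 ± 1.21 and 15.4 ± 1.31 CPM in ml2 and 10.3 ± 0.779 and 19.2 ± 0.946 CPM in WT. Its log2 fold change was -0.54 ± 0.10 in ml5 (adjusted p = 2.79e-05), -0.52 ± 0.10 in ml2 (adjusted p = 3.28e-05) and -0.90 ± 0.10 in WT (adjusted p = 2.27e-09). The ml5 value was -0.134 and did not pass when libraries were scaled by size alone. ABA2 and AAO3 overlap genes on the other strand, AT1G52330 and AT2G27160, which reached at most 0.408 and 0.187 CPM. ABA2 also overlaps the long noncoding RNA gene AT1G07803 on the other strand, whose level was not analysed here. Whether the counting used strand is not given in the sources used here.

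**Figure D1:**
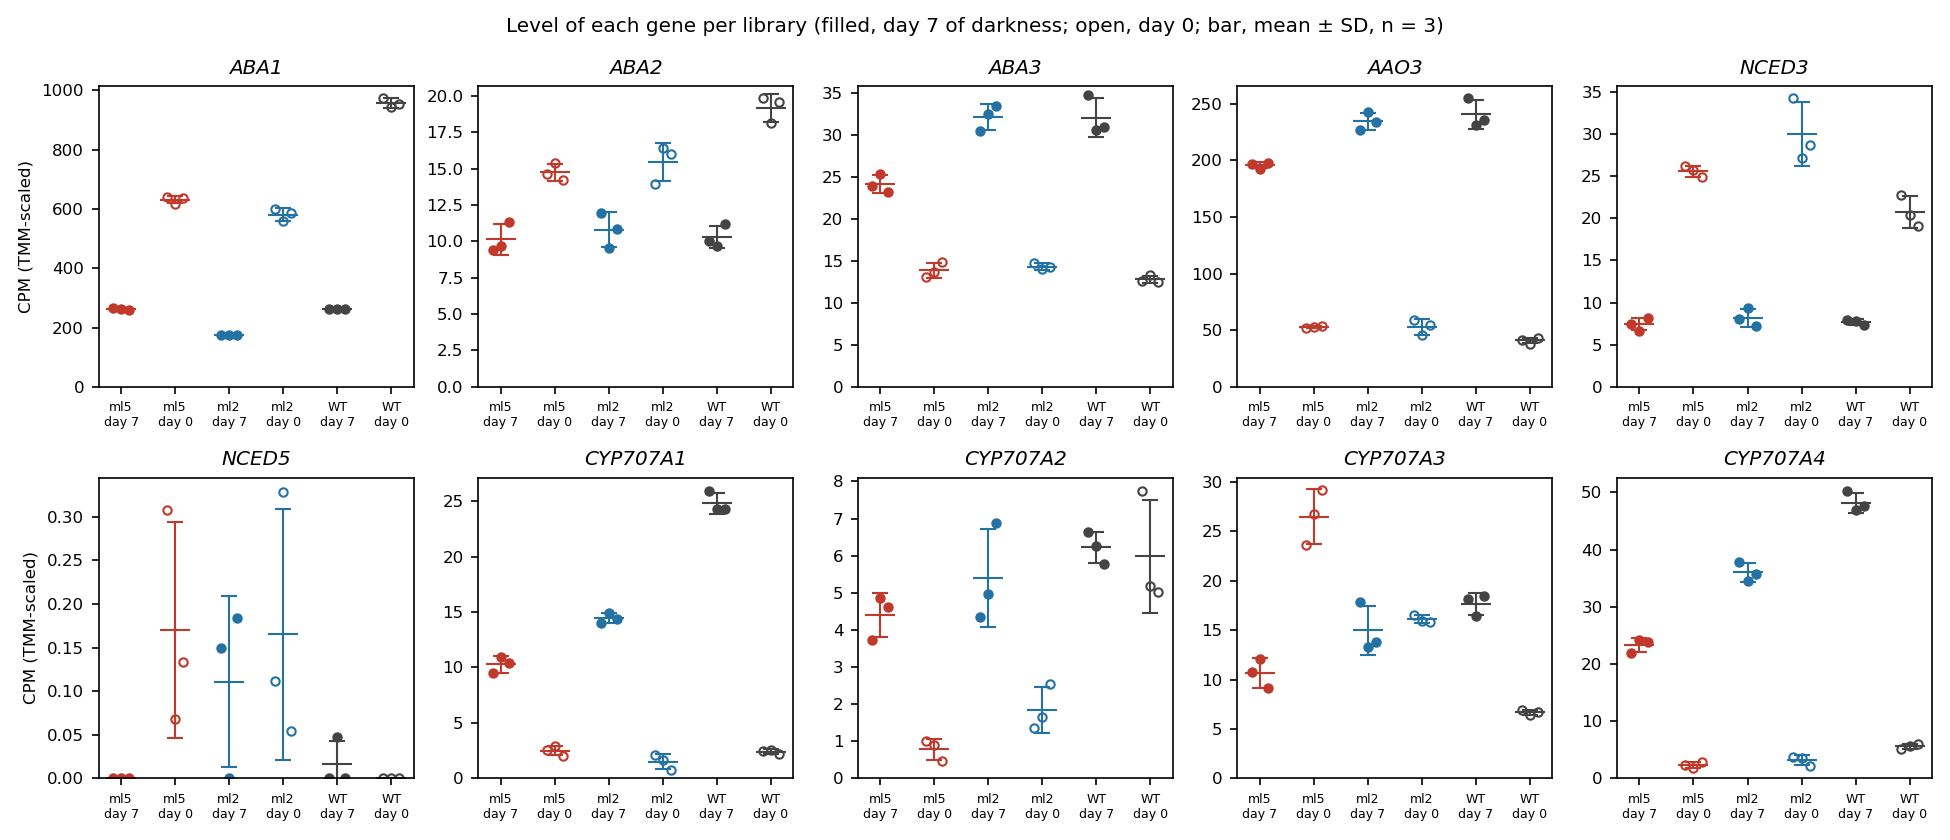
Level of each of the 10 genes per library, in CPM scaled by TMM on a linear axis from 0, in 6 groups (filled points day 7, open points day 0; bars are mean ± SD, n = 3). CYP707A3 is highest in the open ml5 points (23.6 to 29.2 CPM) and lowest in the open WT points (6.42 to 6.95 CPM), while CYP707A1 and CYP707A4 are high in filled points of every genotype.

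Among the hydroxylases, CYP707A3 (AT5G45340, chromosome 5, 18368532 to 18371021, minus strand, 6 exons), a leaf form known for its part in the loss of the hormone after rehydration, changed its direction with genotype. It stood at 10.8, 12.1 and 9.12 CPM in ml5 at day 7, against 23.6, 26.7 and 29.2 CPM in ml5 at day 0. In ml2 it stood at 17.8, 13.3 and 13.8 CPM at day 7, against 16.6, 15.9 and 15.8 CPM at day 0. In WT it stood at 18.1, 16.4 and 18.5 CPM at day 7, against 6.95, 6.42 and 6.72 CPM at day 0. The days did not overlap in ml5, where day 7 was the lower, nor in WT, where day 7 was the higher, and they overlapped in ml2. Darkness lowered it in ml5 (log2 fold change -1.31 ± 0.11, 2.48-fold, adjusted p = 2.16e-12) and raised it in WT (1.40 ± 0.13, 2.63-fold, adjusted p = 1.45e-11). In ml2 the change was -0.11 ± 0.11 and did not pass (adjusted p = 0.369, 95% interval -0.317 to 0.105). The ml2 value was 0.12 when libraries were scaled by size alone, and without ml2 day 7 replicate 1, the highest of its group, it was -0.25 and passed (adjusted p = 0.044).

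CYP707A1 (AT4G19230, chromosome 4, 10521259 to 10523961, plus strand, 7 exons), known from seeds and guard cells, and CYP707A4 (AT3G19270, chromosome 3, 6673689 to 6676521, minus strand, 9 exons) rose with darkness in all 3 genotypes. CYP707A1 was at 9.47, 10.9 and 10.4 CPM in ml5 at day 7, against 2.54, 2.93 and 2.06 CPM in ml5 at day 0. It was at 14.02, 14.9 and 14.4 CPM in ml2 at day 7, against 2.07, 1.69 and 0.754 CPM in ml2 at day 0, and at 25.9, 24.3 and 24.3 CPM in WT at day 7, against 2.49, 2.6 and 2.15 CPM in WT at day 0. The 3 genotypes were apart at day 7, in the order ml5, ml2 and WT from low to high. Its log2 fold change was 2.03 ± 0.17 in ml5 (4.1-fold, adjusted p = 1.71e-12), 3.26 ± 0.17 in ml2 (9.59-fold, adjusted p = 1.64e-17) and 3.36 ± 0.15 in WT (10.3-fold, adjusted p = 5.88e-19). CYP707A4 was at 21.9, 24.3 and 23.8 CPM in ml5 at day 7, against 2.31, 1.84 and 2.79 CPM in ml5 at day 0. It was at 37.8, 34.4 and 35.8 CPM in ml2 at day 7, against 3.70, 3.61 and 2.21 CPM in ml2 at day 0, and at 50.2, 46.9 and 47.6 CPM in WT at day 7, against 5.12, 5.65 and 5.94 CPM in WT at day 0. Its order at day 7 was that of CYP707A1, and at day 0 all libraries of both lines lay below those of WT. Its log2 fold change was 3.33 ± 0.14 in ml5 (10-fold, adjusted p = 4.61e-20), 3.51 ± 0.12 in ml2 (11.4-fold, adjusted p = 1.69e-22) and 3.11 ± 0.11 in WT (8.66-fold, adjusted p = 4.44e-22).

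CYP707A2 (AT2G29090, chromosome 2, 12494826 to 12499723, minus strand, 9 exons), known for its role in seeds as they take up water, had a mean of 4.1 CPM over the 18 libraries. It stood at 3.73, 4.85 and 4.63 CPM in ml5 at day 7, against 1.001, 0.885 and 0.464 CPM in ml5 at day 0, and at 4.34, 4.97 and 6.87 CPM in ml2 at day 7, against 1.34, 1.64 and 2.53 CPM in ml2 at day 0. In WT it stood at 6.63, 6.26 and 5.79 CPM at day 7, against 7.74, 5.195 and 5.02 CPM at day 0, and there the days overlapped. Darkness raised it in ml5 (log2 fold change 2.50 ± 0.30, adjusted p = 6.35e-09) and in ml2 (1.55 ± 0.23, adjusted p = 3.8e-07). In WT the change was 0.053 ± 0.19 and did not pass (adjusted p = 0.803, 95% interval -0.323 to 0.429). With library sizes alone the WT value was 0.43 and passed (adjusted p = 0.0396), and it was -0.034 and -0.065 without WT day 0 replicate 2 and replicate 3.

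**Figure D2:**
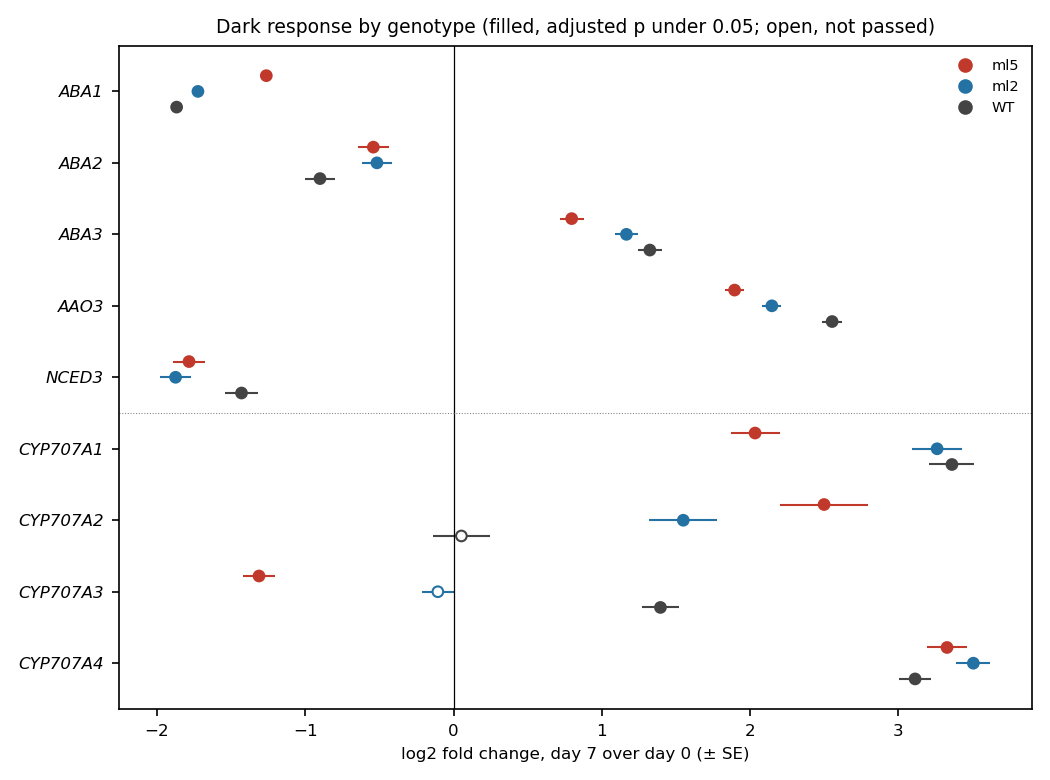
Log2 fold change of day 7 over day 0 (± SE, n = 3 libraries per group) of the 9 tested genes in ml5, ml2 and WT, with synthesis genes above the dotted line and hydroxylases below it. Filled points passed the test. CYP707A3 lies at -1.31 in ml5, -0.11 in ml2 (open) and 1.40 in WT, and CYP707A2 in the reverse order at 2.50, 1.55 and 0.053 (open).

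Counted over the members, darkness raised 5 and lowered 4 of 9 genes in ml5, where 79.8% of all tested genes passed (39.7% higher, 40.1% lower). In ml2 it raised 5, lowered 3 and left 1 that did not pass, against 79.8% of all genes (39.6% higher, 40.2% lower). In WT it raised 5, lowered 3 and left 1, against 81.9% of all genes (42% higher, 39.9% lower). The members' share was near that of all genes in the 3 comparisons, so the number of calls says nothing particular to them. The median log2 fold change of the 9 members was 0.80 in ml5, 1.17 in ml2 and 1.32 in WT, beside 0.0020, 0.00070 and 0.044 over all tested genes. By class, 2 synthesis genes rose (AAO3 and ABA3) and 3 fell (ABA1, ABA2 and NCED3) in each genotype. Of the hydroxylases, 3 rose and 1 fell in ml5, and 3 rose and 1 did not pass in ml2 and in WT.

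At day 0 the lines were set against WT. In both lines CYP707A3 was the most raised member and CYP707A2 the most lowered. CYP707A3 was higher by 1.98 ± 0.12 in ml5 (log2 fold change, 3.96-fold, adjusted p = 3.84e-14) and by 1.26 ± 0.13 in ml2 (2.4-fold, adjusted p = 1.37e-09). CYP707A2 was lower in ml5 (-2.95 ± 0.29, 7.72-fold, adjusted p = 1.22e-09) and in ml2 (-1.70 ± 0.23, 3.25-fold, adjusted p = 4.67e-07). Of all tested genes, 97.7% and 99.1% had a smaller absolute change than CYP707A3 and CYP707A2 in ml5, and 93.5% and 96.1% in ml2. CYP707A4 was lower in both lines, by -1.26 ± 0.18 in ml5 (adjusted p = 9.28e-07) and -0.81 ± 0.16 in ml2 (adjusted p = 8.44e-05). CYP707A1 did not pass in ml5 (0.057 ± 0.23, adjusted p = 0.881, 95% interval -0.385 to 0.499) and was lower in ml2 (-0.68 ± 0.24, adjusted p = 0.0205). That call rested on few counts: without ml2 day 0 replicate 3 the value was -0.35 and did not pass, without WT day 0 replicate 1 or replicate 2 it was -0.65 and -0.63 and did not pass, and it did not pass with library sizes alone (-0.57) or with only the libraries compared (-0.66). Without ml2 day 0 replicate 1 it was -1.0 and passed.

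On the synthesis side at day 0, ABA1 was lower in ml5 (-0.60 ± 0.038, adjusted p = 4.6e-14) and in ml2 (-0.72 ± 0.038, adjusted p = 4.67e-16), and so was ABA2, by -0.38 ± 0.10 in ml5 (adjusted p = 0.0033) and -0.31 ± 0.10 in ml2 (adjusted p = 0.01). The ml2 value of ABA2 was -0.20 and did not pass with library sizes alone. NCED3 was higher in ml5 (0.30 ± 0.10, adjusted p = 0.0171) and in ml2 (0.53 ± 0.096, adjusted p = 3.31e-05). The ml5 call ended with DESeq2 (0.27) and without WT day 0 replicate 3 (0.24) or ml5 day 0 replicate 1 (0.28). AAO3 was higher in ml5 (0.36, adjusted p = 0.000167) and in ml2 (0.37, adjusted p = 7.49e-05), and ABA3 did not pass in either line. In all, 3 members were higher and 4 lower in ml5, where 38.3% of all genes passed (19.5% higher, 18.8% lower). In ml2, 3 were higher and 5 lower, where 44.5% of all genes passed (21.9% higher, 22.6% lower), and without the ml2 library that stood apart 8 members were still called. The comparisons of ml5 and of ml2 share the WT libraries.

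At day 7 no member was higher in a line than in WT. In ml5 all 4 hydroxylase genes were lower: CYP707A1 by -1.27 ± 0.11 (adjusted p = 7.41e-11), CYP707A4 by -1.05 ± 0.082 (adjusted p = 5.81e-12), CYP707A3 by -0.72 ± 0.11 (adjusted p = 1.92e-06) and CYP707A2 by -0.50 ± 0.19 (adjusted p = 0.0305). The CYP707A2 call ended with library sizes alone, with DESeq2, and without WT day 7 replicate 1 or 2 or ml5 day 7 replicate 1, where it was -0.39. AAO3 and ABA3 were lower in ml5 as well (-0.30 ± 0.059 and -0.41 ± 0.070), and ABA1, ABA2 and NCED3 did not pass. In ml2, CYP707A1 (-0.78 ± 0.11, adjusted p = 1.23e-06), CYP707A4 (-0.42 ± 0.080, adjusted p = 0.000123) and ABA1 (-0.58 ± 0.039, adjusted p = 3.75e-13) were lower. CYP707A3 did not pass in ml2 (-0.24 ± 0.11, adjusted p = 0.097), but did without ml2 day 7 replicate 1 (-0.38) and with library sizes alone (-0.28). The count was 6 lower of 9 in ml5, where 43.3% of all genes passed (19.3% higher, 24% lower), and 3 lower of 9 in ml2, where 25.8% passed (13.4% higher, 12.4% lower).

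**Figure D3:**
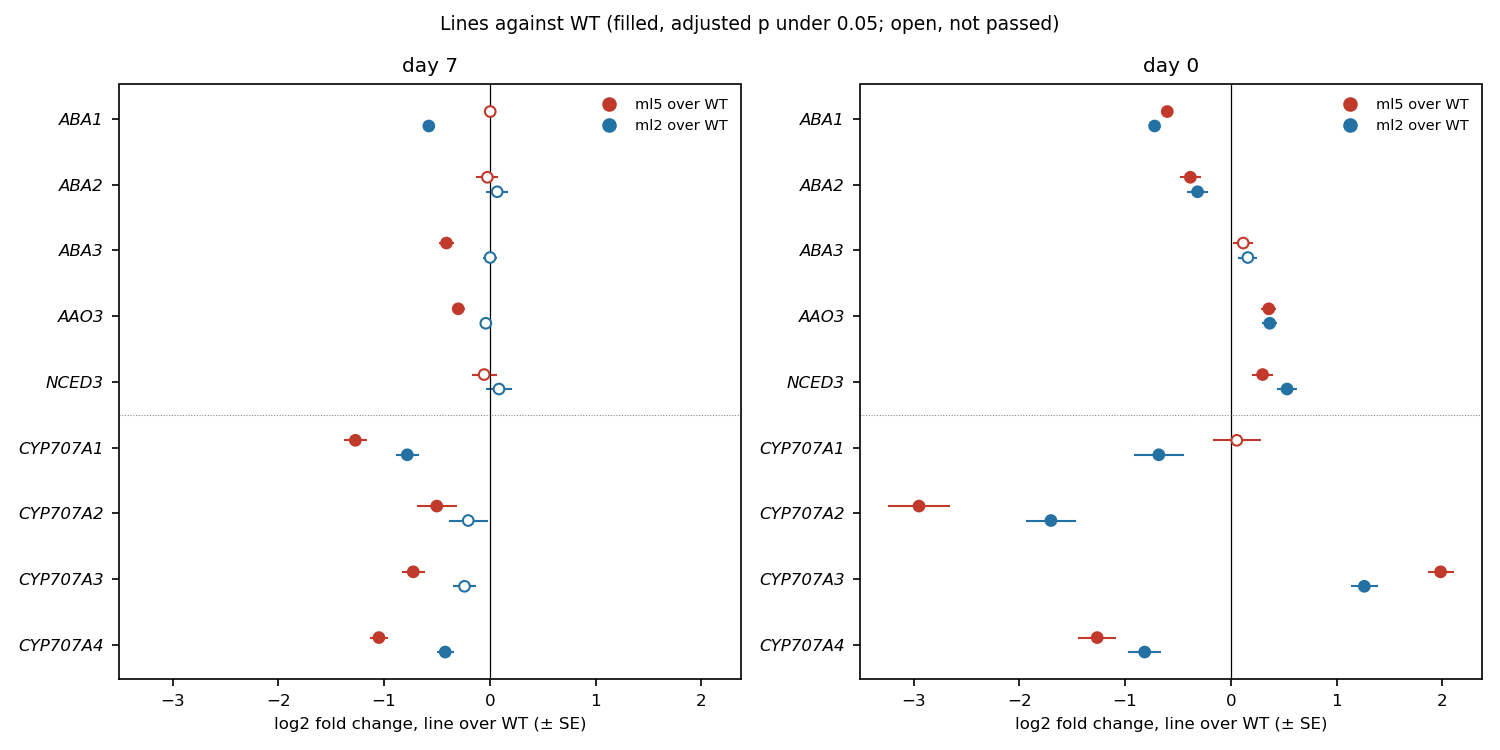
Log2 fold change of each line over WT (± SE, n = 3 libraries per group) at day 7 (left) and day 0 (right), with synthesis genes above the dotted line and hydroxylases below it. Filled points passed the test. At day 7 the 4 hydroxylases lie between -1.27 and -0.50 in ml5, and at day 0 CYP707A3 lies at 1.98 and CYP707A2 at -2.95.

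The lines were also set against each other. At day 7, ml5 was lower than ml2 in 5 members, with CYP707A4 at -0.63 (adjusted p = 3e-07), CYP707A1 at -0.49 (adjusted p = 0.000969), CYP707A3 at -0.48 (adjusted p = 0.000612), ABA3 at -0.41 and AAO3 at -0.26, and higher in ABA1 (0.58, adjusted p = 1.67e-13). Of all genes 41.4% passed in this comparison (19% higher, 22.4% lower). At day 0, ml5 was higher than ml2 in CYP707A3 (0.72 ± 0.11, adjusted p = 2.64e-06), CYP707A1 (0.74 ± 0.24, adjusted p = 0.0187) and ABA1 (0.12 ± 0.038, adjusted p = 0.0164) and lower in CYP707A2 (-1.25 ± 0.35, adjusted p = 0.00722). Of all genes 28.7% passed (14.2% higher, 14.5% lower). Only 2 of these 4 calls, those of CYP707A3 and CYP707A2, were made when the fit held just the libraries compared. CYP707A1 did not pass without ml2 day 0 replicate 3 (0.41) or ml5 day 0 replicate 2 (0.60), and CYP707A2 did not pass without ml2 day 0 replicate 3 (-0.94) or ml5 day 0 replicate 3 (-0.97). ABA1 did not pass with library sizes alone (0.020) or without ml2 day 0 replicate 2 (0.091), ml5 day 0 replicate 1 (0.11) or ml5 day 0 replicate 3 (0.11).

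Whether darkness acted differently by genotype was tested as the difference between dark responses on the log2 scale. The difference was widest for CYP707A3, whose response in ml5 lay below that in WT by -2.71 ± 0.16 (adjusted p = 2.65e-14) and in ml2 by -1.5 ± 0.17 (adjusted p = 1.89e-08). The response of CYP707A2 exceeded that in WT by 2.45 ± 0.36 in ml5 (adjusted p = 2.44e-06) and 1.5 ± 0.30 in ml2 (adjusted p = 0.00025). CYP707A1 responded less in ml5 than in WT (-1.33 ± 0.25, adjusted p = 9.82e-05), and in ml2 its difference of -0.10 ± 0.27 did not pass. CYP707A4 did not pass in ml5 (0.22 ± 0.20, 95% interval -0.176 to 0.607) or in ml2 (0.39 ± 0.18, adjusted p = 0.0978), although without ml2 day 0 replicate 1 the ml2 value was 0.55 and passed. The rise of AAO3 was smaller in ml5 (-0.66, adjusted p = 1.27e-06) and in ml2 (-0.41, adjusted p = 0.001), and that of ABA3 in ml5 (-0.53, adjusted p = 0.000572). The fall of ABA1 was smaller in ml5 (0.60 ± 0.054, adjusted p = 1.4e-10).

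In ml2 the differences of ABA1 (0.14, adjusted p = 0.0443), ABA2 (0.38, adjusted p = 0.0436) and NCED3 (-0.44, adjusted p = 0.0283) passed narrowly: the call ended in 21 of 27 alternatives for ABA1, 12 for ABA2 and 9 for NCED3. Of members, 2 differed upward and 4 downward between ml5 and WT, where 35.4% of all genes passed (17.4% higher, 18.1% lower). Between ml2 and WT 3 differed upward and 3 downward, where 29% passed (13.4% higher, 15.6% lower), and 3 passed when 1 of 5 libraries was left out: replicate 3 of WT day 0, replicates 1 and 2 of WT day 7, and replicates 1 and 3 of ml2 day 7. Without ml2 day 0 replicate 1, 5 passed. Between ml5 and ml2, 1 differed upward (ABA1, 0.46) and 4 downward, led by CYP707A1 (-1.23 ± 0.26, adjusted p = 0.00068) and CYP707A3 (-1.21 ± 0.15, adjusted p = 3.06e-07), where 25.8% passed (13.6% higher, 12.2% lower). That count of 5 was 3 without ml5 day 0 replicate 3 and 6 without ml2 day 0 replicate 1, where CYP707A2 was 1.16 and passed. AAO3 (-0.25) and ABA3 (-0.37) were among these 5. The AAO3 call ended in 12 of 27 alternatives, among them scaling by library size (-0.071) and leaving out ml2 day 0 replicate 2 (-0.15). ABA3 did not pass with library sizes alone (-0.19) or without ml5 day 0 replicate 3 (-0.32). The 3 differences share libraries.

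To set synthesis against breakdown, CPM of each gene were divided by its coding length in kilobases (kb) and summed over each class per library. The synthesis sum was lower at day 7 in all genotypes and the hydroxylase sum higher, so their ratio was lower at day 7 throughout. The ratio was 5.54, 6.1 and 6.38 in ml5 at day 7, against 14.9, 15.5 and 17.6 in ml5 at day 0. It was 3.35, 3.53 and 3.72 in ml2 at day 7, against 20.3, 21.0 and 22.8 in ml2 at day 0, and 3.16, 3.23 and 3.28 in WT at day 7, against 34.3, 37.0 and 37.5 in WT at day 0. From low to high the order was WT, ml2 and ml5 at day 7, then ml5, ml2 and WT at day 0, and no neighbours in it overlapped, although WT and ml2 at day 7 were close. The lines had higher ratios than WT at day 7 and lower ones at day 0. These sums are a description, with no test.

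Synthesis was 206 ± 1.51 CPM per kb in ml5 at day 7 and 365 ± 5.28 at day 0, 176 ± 1.27 and 344 ± 12.8 in ml2, and 220.0 ± 3.76 and 527 ± 10.2 in WT (SD, n = 3). The hydroxylase sum was 34.3 ± 2.25 CPM per kb in ml5 at day 7 and 22.9 ± 1.84 at day 0, 50.01 ± 2.295 and 16.1 ± 0.846 in ml2, and 68.3 ± 2.53 and 14.6 ± 0.977 in WT. ABA1 made up 49.8% to 63.8% of the synthesis sum at day 7 and 84.4% to 90.7% at day 0 (group means). Without ABA1, an alternative chosen after seeing the data, the synthesis sum was higher at day 7, with 74.4 and 50.1 CPM per kb in ml5, 88.6 and 53.7 in ml2, and 89.1 and 49.2 in WT at day 7 and day 0. The log2 ratio without ABA1 was then 1.12 ± 0.11 in ml5 at day 7 and 1.13 ± 0.12 in ml5 at day 0, which overlapped, against 0.83 ± 0.087 and 1.74 ± 0.086 in ml2, and 0.38 ± 0.013 and 1.76 ± 0.052 in WT (SD). In that form ml2 and WT also overlapped at day 0.

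**Figure D4:**
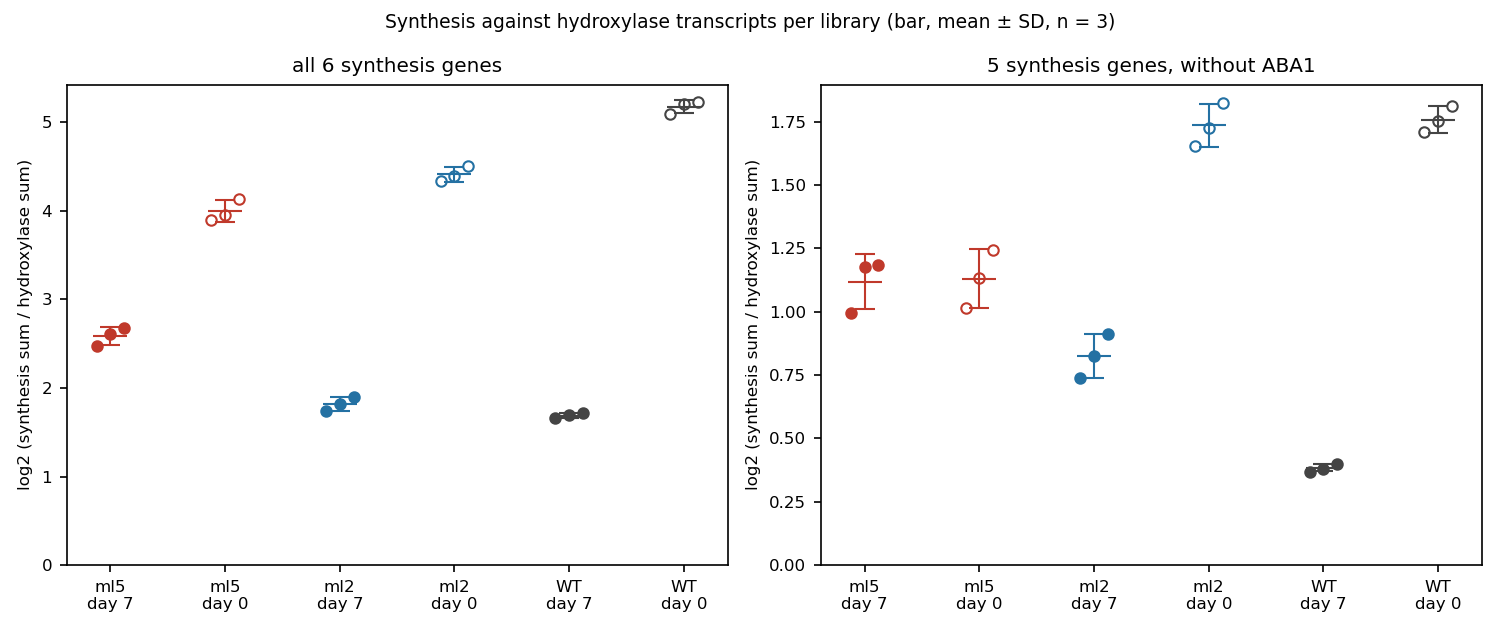
Log2 of the synthesis sum over the hydroxylase sum per library (CPM per kb of coding length), with all 6 synthesis genes (left) and without ABA1 (right), in 6 groups (filled points day 7, open points day 0; bars are mean ± SD, n = 3). The left panel spans 1.69 in WT at day 7 to 5.18 in WT at day 0, and in the right panel ml5 at day 7 (1.12) and ml5 at day 0 (1.13) coincide.

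The make-up of the hydroxylase sum differed between genotypes at day 0. CYP707A3 made up 82.9% ± 2.19 of it in ml5 at day 0, 71.8% ± 2.58 in ml2 at day 0 and 33.1% ± 1.33 in WT at day 0 (SD, n = 3). At day 7 its share was 22.3% ± 2.56 in ml5, 21.5% ± 2.61 in ml2 and 18.6% ± 0.901 in WT. CYP707A4 was the largest at day 7, with 48.3% in ml5, 51.2% in ml2 and 50.2% in WT, against 7.16%, 13.9% and 27.3% at day 0. CYP707A2 held 28.1% ± 5.13 in WT at day 0, against 7.98% ± 3.13 in ml2 and 2.41% ± 1.01 in ml5, and 6.29% to 8.83% at day 7. CYP707A1 held 19.9% to 25.0% at day 7 and 6.33% to 11.4% at day 0.

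**Figure D5:**
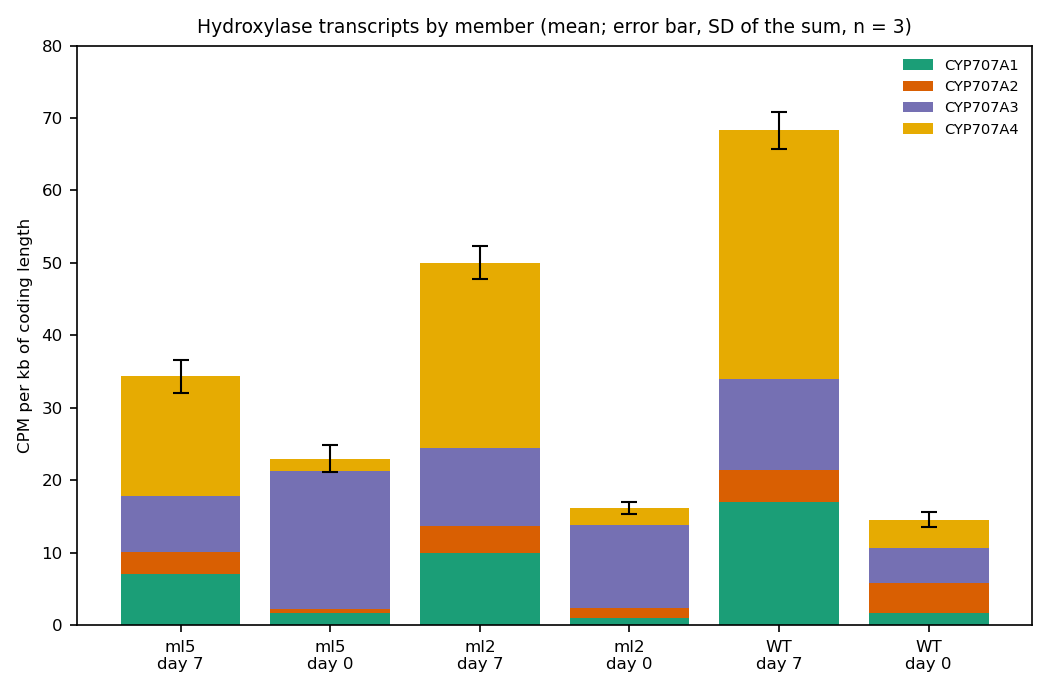
Hydroxylase transcripts by gene, as mean CPM per kb of coding length stacked over the 4 genes in 6 groups (error bars are the SD of the sum, n = 3). CYP707A3 fills most of the bar in ml5 and ml2 at day 0 (82.9% and 71.8%), and CYP707A4 is the largest part in all day 7 bars (48.3% to 51.2%).

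Among the synthesis genes other than ABA1, the share of AAO3 was higher at day 7 and those of NCED3 and ABA2 lower. AAO3 held 65.8% of it in ml5 at day 7 and 26.2% at day 0, 66.2% and 24.6% in ml2, and 67.5% and 20.8% in WT. NCED3 held 5.54% in ml5 at day 7 and 28.4% at day 0, 5.14% and 31.0% in ml2, and 4.8% and 23.4% in WT. ABA2 held 15.9% in ml5 at day 7 and 34.3% at day 0, 14.2% and 33.6% in ml2, and 13.5% and 45.4% in WT.

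Of 56 further genes of the pathway, 48 were tested, and 5 had 0 counts in every library. With darkness 15 rose and 24 fell in ml5 (median log2 fold change -0.19), 18 rose and 23 fell in ml2 (-0.11), and 17 rose and 25 fell in WT (-0.24). Of all genes 79.8%, 79.8% and 81.9% passed in these comparisons, so the counts are near the background. Against WT at day 0, 14 were higher and 17 lower in ml5 (38.3% of all genes passed), and 15 higher and 20 lower in ml2 (44.5% of all genes). At day 7, 13 were higher and 14 lower in ml5 (43.3% of all genes), and 10 higher and 12 lower in ml2 (25.8% of all genes). Against ml2, ml5 was higher in 13 and lower in 15 at day 7 (41.4% of all genes), and higher in 10 and lower in 5 at day 0 (28.7% of all genes). The dark response differed in 27 of the 48 between ml5 and WT (35.4% of all genes), in 31 between ml2 and WT (29% of all genes) and in 17 between ml5 and ml2 (25.8% of all genes).

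Of the 13 carotenoid genes on the pathway list, 12 fell with darkness in WT and 1 rose (median -1.31). In that comparison 39.9% of all genes were lower and 42% higher. PSY, the phytoene synthase, averaged 39.5 ± 0.370 CPM in WT at day 7 and 315 ± 2.40 CPM in WT at day 0 (-2.998 ± 0.052, adjusted p = 5.97e-30). NPQ1, the violaxanthin de-epoxidase, averaged 21.3 ± 2.52 and 213 ± 8.11 CPM at the same days (-3.32 ± 0.063). The exception was BCH1, a carotene hydroxylase, with 373 ± 2.02 CPM in WT at day 7 and 34.4 ± 3.10 CPM in WT at day 0 (3.44 ± 0.059, adjusted p = 3.91e-30). At day 0, 9 of the 13 were lower than in WT in ml5 and 12 in ml2, with none higher, where 18.8% and 22.6% of all genes were lower. PSY was at -0.41 in ml5 and -0.75 in ml2 there, and the lycopene cyclase gene LYC at -0.65 and -0.56.

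Of the other dioxygenase genes 3 of 5 were tested, and with darkness 1 rose and 2 fell in each genotype. Of the 3 other aldehyde oxidase genes, 2 rose in ml5, 3 in ml2 and 2 in WT. Beside these counts, 79.8% of all genes passed with darkness in ml5, 79.8% in ml2 and 81.9% in WT. NCED2, a relative of NCED3, had 0.643, 1.35 and 0.764 CPM in ml5 at day 7, against 5.59, 7.34 and 5.69 CPM in WT at day 7, and 0 counts in all libraries of ml2 and WT at day 0. It was lower in ml5 than in WT at day 7 (-2.74 ± 0.24, adjusted p = 4.57e-10). CCD4, a carotenoid dioxygenase of another branch, averaged 55.4 ± 2.89 CPM in WT at day 7 and 1204 ± 35.0 CPM in WT at day 0 (-4.44 ± 0.066). AAO4, an aldehyde oxidase related to AAO3, stood at 8.94 to 10.4 CPM in ml5 and at 9.36 to 11.3 CPM in WT at day 7, and at most at 0.197 CPM at day 0. AAO1 rose in WT (1.63 ± 0.13, adjusted p = 1.5e-12).

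Of the genes that store, release and move the hormone, 2 glucosidase genes fell and 3 of 4 transporter genes rose with darkness in WT. There 81.9% of all genes passed (42% higher, 39.9% lower). BGLU18, which frees the hormone from its glucose ester, averaged 68.1 ± 0.943 CPM in WT at day 7 and 197 ± 3.91 CPM in WT at day 0 (-1.53 ± 0.050, adjusted p = 1.35e-22), and BGLU33 changed by -2.57 ± 0.081. At day 0 BGLU18 was higher than in WT in ml5 (0.87 ± 0.048) and in ml2 (0.85 ± 0.048), as was UGT71B6, a glucosyltransferase for the hormone (0.71 ± 0.14 and 1.23 ± 0.13). The exporter ABCG25 averaged 86.7 ± 1.08 CPM in WT at day 7 and 5.79 ± 1.63 CPM in WT at day 0 (3.92 ± 0.10). The importer ABCG40 (4.37 ± 0.16) and the efflux carrier DTX50 (4.25 ± 0.14) rose with it, while NPF4.6, another importer, fell (-0.28 ± 0.051), where the value was 0.11 with library sizes alone. ABCG40 set the lines apart: it averaged 29.0 ± 1.79 CPM in ml5 at day 7 and 147 ± 4.81 CPM in ml2 at day 7, against 43.6 ± 0.794 CPM in WT at day 7 (ml5 -0.58 ± 0.099, ml2 1.76 ± 0.092). At day 0 DTX50 was higher in ml5 (1.58 ± 0.19) and ml2 (1.13 ± 0.20), and ABCG40 was higher in ml2 (2.46 ± 0.20).

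Of 10 receptor genes tested, 2 rose and 5 fell with darkness in WT, where 81.9% of all genes passed. Those with the smallest adjusted p included PYL4 (-1.24 ± 0.072) and PYL8 (-0.84 ± 0.064). PYL4 was lower than in WT at day 0 in ml5 (-1.31 ± 0.076) and in ml2 (-1.58 ± 0.076), and PYL7 was higher (0.82 ± 0.070 and 0.71 ± 0.069). PYL8 was higher than in WT at day 7 in ml5 (0.97 ± 0.063) and in ml2 (0.67 ± 0.063). Of the 3 kinase genes 2 rose in WT, with SNRK2.3 at 0.46 ± 0.052, and of the 5 bZIP factor genes 4 rose and 1 fell, with ABI5 at 2.61 ± 0.27. ABF3 was higher in ml5 than in WT at day 7 (0.67 ± 0.059, adjusted p = 9.11e-11).

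Of 4 tested genes that respond to the hormone, 2 rose and 2 fell with darkness in each genotype, but they were not the same genes. Of all genes 79.8% passed in ml5, 79.8% in ml2 and 81.9% in WT. The libraries of the 2 days were apart in 2 of the 4 genes in ml5, and in all 4 in ml2 and in WT. The share of all genes with the days apart was not computed, so these counts are not read as a trait of a genotype. RD29B rose and RD29A fell in all 3 genotypes. KIN1 fell in ml5 (-0.59 ± 0.21) and rose in ml2 (0.71 ± 0.18) and WT, and RAB18 rose in ml5 (0.23 ± 0.098) and fell in ml2 (-0.98 ± 0.11) and WT (-0.29 ± 0.11). Without ml5 day 0 replicate 1 KIN1 in ml5 was -0.37 and did not pass, and with library sizes alone it was -0.18 and did not pass. RAB18 did not pass in ml5 with a stricter filter or without any 1 of 4 ml5 libraries, replicates 2 and 3 of day 0 and replicates 1 and 2 of day 7, nor in WT without WT day 0 replicate 2 or WT day 7 replicate 3, and with library sizes alone its WT value was 0.095. At day 0, 3 of the 4 were higher than in WT in each line and none lower, where 19.5% of all genes were higher in ml5 and 21.9% in ml2. In WT, RD29B rose (3.80 ± 0.30, adjusted p = 7e-13), with 3.90 ± 0.244 CPM at day 7 and 0.276 ± 0.025 CPM at day 0, and RD29A fell (-1.02 ± 0.092, adjusted p = 1.32e-11). At day 0, RD29A averaged 344 ± 31.9 CPM in ml5 and 223 ± 39.5 CPM in ml2, against 83.1 ± 3.74 CPM in WT (2.05 ± 0.086 and 1.43 ± 0.086), and RAB18 was higher in ml5 (0.56 ± 0.11) and ml2 (0.41 ± 0.11). At day 7, RAB18 averaged 21.1 ± 0.979 CPM in ml5 and 10.0 ± 0.774 CPM in WT (1.07 ± 0.10, adjusted p = 2.78e-10), and RD29A was lower in ml2 (-0.90 ± 0.10). The value of KIN1 in WT was 3.17 ± 0.23, but the gene has a near-identical neighbour, KIN2, with which reads may be shared.

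The genes most like NCED3 over the 18 libraries, by Pearson r of log2(CPM + 0.5), were ATSYTF (0.993), AT4G01390 (0.989) and AT1G67800 (0.987), with 3450 genes over 0.9. After centring on the mean of each day they were AT3G60800 (0.894), SAE2 (0.877) and PFK3 (0.872), and none was over 0.9. For CYP707A4, the hydroxylase gene with the highest mean CPM (19.8), they were MSL2 (0.995), AT3G56200 (0.995) and SAT32 (0.993), with 3116 genes over 0.9, and after centring BEL1 (0.951), OVA5 (0.95) and INV-E (0.949), with 38 over 0.9. These values describe libraries that share day, depth and genotype, and carry no test.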

How the data were processed

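Per the labels' protocols, Trizol was used on leaves and TruSeq for the libraries. The submitters' processing notes name the aligners TopHat2 2.0.12 and Bowtie2 2.0.6 and the builds TAIR10 and IRGSP-1.0. The table deposited by the authors holds estimated counts per gene, judged by its values, of which 97.124% were whole. The sources used here do not give the counting tool, its strand setting or its treatment of shared reads.

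After rounding, filterByExpr (min.count 10) kept 19493 genes and dropped 8135. TMM scaling and the quasi-likelihood fit of edgeR 4.0.16 (R 4.3.3) used all 18 libraries as 6 group means, for 12 comparisons, with two-sided p-values adjusted by Benjamini and Hochberg within each and called under 0.05. The spread between libraries beyond counting noise, as edgeR's common coefficient of variation, was 5.63%. With 3 libraries against 3 the smallest exact permutation p is 0.1. The smaller p-values here rest on the model of the fit, which pools spread over genes. SE come from the fit and SD from 3 libraries, and intervals cover 95%. The scripts were tested on simulated data.

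Positions, exons and coding lengths are from the TAIR10.1 annotation; the deposited table gives no coordinates. Upstream windows hold 250 bases.

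The 10 members, the pathway list of 56 genes in 9 groups and the marker lists were chosen with earlier results of these data known. With the exceptions given next, genes named from the pathway list come from those that had replicates apart between the groups. Up to 3 were named per sublist and comparison, in order of adjusted p. NPF4.6 in WT was named after its values were seen. The 4 tested response genes were given for darkness in every genotype whether or not they met this rule. In ml5 the days were apart in 2 of these 4. AAO4 and NCED2 were named by the same rule, and their fold changes with darkness are not printed because libraries at day 0 had 0 counts.

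Same-numbered replicates did not deviate together (0 of 45 pairs with a correlation over 0.1), so the numbers were not used as a pairing. Alternatives were DESeq2 1.42.0, limma-voom (limma 3.58.1), scaling by RLE or by library size alone, a filter of 1 count or a stricter one, a fit of just the compared libraries, a fit without organelle genes, a replicate block, and each library left out in turn.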

Additional observations from a re-analysis of the deposited data

Results flagged for a closer look

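The values below were listed because a test of the difference itself, an interaction term in edgeR's quasi-likelihood fit, passed between the dark responses of 2 genotypes. They are differences of log2 fold changes over 3 libraries per group. For ml5 minus WT, CYP707A3 stood at -2.71, CYP707A1 at -1.33, AAO3 at -0.66 and ABA3 at -0.53, while CYP707A2 stood at 2.45 and ABA1 at 0.60. For ml2 minus WT, CYP707A3 stood at -1.5, NCED3 at -0.44 and AAO3 at -0.41, while CYP707A2 stood at 1.5, ABA2 at 0.38 and ABA1 at 0.14. For ml5 minus ml2, CYP707A1 stood at -1.23, CYP707A3 at -1.21, ABA3 at -0.37 and AAO3 at -0.25, while ABA1 stood at 0.46. The calls of ABA1, ABA2 and NCED3 for ml2 minus WT ended in 21, 12 and 9 of 27 alternatives, and those of AAO3 and ABA3 for ml5 minus ml2 in 12 and 2. CYP707A3 is the member for which the sign of the dark response itself differed, with all ml5 libraries lower at day 7 and all WT libraries higher. The mesophyll marker sum, which also differed between genotypes at day 7, was 470 to 486 CPM in ml5, 192 to 201 CPM in ml2 and 165 to 182 CPM in WT. Of its 3 genes, 2 were higher in ml5 than in WT at day 7, while CA1 was lower. In that comparison 43.3% of all genes passed (19.3% higher, 24% lower). CA1 averaged 1.33 CPM in ml5, 4.57 CPM in ml2 and 2.73 CPM in WT at day 7. The part of these markers in the differences above was not tested.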

How the results depend on the processing

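Of 108 member values (9 genes in 12 comparisons), 72 kept their direction and their side of the threshold under every alternative run. Library sizes alone moved the median log2 fold change of all genes with darkness to 0.409 in ml5, 0.227 in ml2 and 0.424 in WT, and to 0.101 for ml2 against WT at day 0, -0.154 for the dark response of ml2 minus WT and 0.175 for ml5 minus ml2. It took the share of higher calls among all calls with darkness to 65.3% in ml5, 59.1% in ml2 and 64.3% in WT, against 49.7%, 49.6% and 51.3% with TMM. For ml2 against WT the share was 41.2% at day 7 and 66.8% at day 0, against 51.9% and 49.3%, for ml5 against ml2 60% and 26.8%, against 45.9% and 49.4%, and for the dark response 22.8% in ml2 minus WT and 80.6% in ml5 minus ml2, against 46.3% and 52.8%. With it CYP707A3 in ml2 with darkness was 0.12, ABA3 in ml2 against WT at day 7 -0.037, ABA2 in ml5 against WT at day 7 0.019, and of the differences in dark response ABA1 in ml2 minus WT was -0.011, and in ml5 minus ml2 ABA2 was 0.157 and CYP707A4 0.0027. With darkness in WT NPF4.6 was 0.11 and RAB18 0.095, and 50 of 54 pathway values named kept direction and side of the threshold under every alternative. With only the libraries compared ABA3 in ml2 and ABA2 in ml5 against WT at day 7 were -0.0014 and 0.015, and the members called for ml5 against ml2 at day 0 were 2. With limma-voom CYP707A1 in the dark response of ml2 minus WT was 0.011.

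With 1 library left out in turn, members called ran from 3 to 5 for the dark response of ml2 minus WT (6 with all libraries) and from 3 to 6 for ml5 minus ml2. Values that changed sign ran from -0.065 to 0.29 for CYP707A2 in WT with darkness. At day 0 they ran from -0.076 to 0.19 for CYP707A1 in ml5 against WT and from -0.11 to 0.059 for AAO3 in ml5 against ml2. At day 7 they ran, for ml2 against WT, from -0.0094 to 0.15 for ABA2, -0.032 to 0.064 for ABA3, -0.067 to 0.0055 for AAO3 and -0.019 to 0.18 for NCED3, and, for ml5 against WT, from -0.11 to 0.038 for ABA2, -0.12 to 0.020 for NCED3 and -0.0053 to 0.028 for ABA1. In the dark response they ran from -0.43 to 0.23 for CYP707A1 in ml2 minus WT, and in ml5 minus ml2 from -0.11 to 0.073 for ABA2 and -0.32 to 0.029 for CYP707A4. None of these had passed. The cause of these shifts was not tested.

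With the replicate number as a block, 2 calls ended, both in the dark response of ml2 minus WT: ABA2 (0.38, adjusted p = 0.0507) and ABA1 (0.14, adjusted p = 0.0542). Same-numbered libraries correlated between -0.121 and 0.077.

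The log2 ratio of the sums without ABA1 was 1.12 in ml5, 0.83 in ml2 and 0.38 in WT at day 7 and 1.13, 1.74 and 1.76 at day 0. Without CYP707A2, also chosen after seeing the data, it was 2.72, 1.93 and 1.78 at day 7, 4.53 in ml2 and 5.66 in WT at day 0. With exon length in place of coding length it was 1.73 in WT at day 7, and 4.14, 4.55 and 5.31 in ml5, ml2 and WT at day 0. Low counts limit CYP707A1, CYP707A2 and CYP707A4 at day 0.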
